A study of Pinus pinaster with 4 samples.

Results

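In needles of maritime pine (Pinus pinaster), 78 contigs were expressed in plants of both provenances studied and were at least 3 times higher in the Leiria plants than in the Tamrabta plants. A contig is an assembled transcript sequence of the SustainPine database. Its level is given in counts per 1000000 mapped read pairs after the authors' scaling between libraries (CPM), so the libraries do not sum to 1000000. The rule took contigs with 1 CPM or more in each of the 4 libraries whose lower Leiria value was at least 3 times the higher Tamrabta value. It left out sp_v3.0_unigene16601 and the 100 contigs of highest mean CPM. Of the 17571 contigs in the deposited table, 14597 passed the floor of 1 CPM in all 4 libraries, and the 78 members were 0.534% of these. The members were chosen by the CPM values of the same 4 libraries described here, so these values are given as a description and support no statement on the provenances as a whole.

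The Leiria provenance comes from coastal Portugal and was represented by the plants L6 and L7. The Tamrabta provenance comes from the Atlas Mountains of Morocco and was represented by the plants T3 and T6. All were rooted cuttings, 17 months old when potted, grown in 1 greenhouse with no treatment that differed between provenances, and their branches had been pruned so that new shoots formed before adult needles were taken. The cuttings came from a clonal collection, and the sources used here do not say whether both plants of a provenance were 1 clone. The replicates are thus 2 plants of each provenance with 1 library each. Any p-value of a fit sets a difference against the spread between these plants only, a spread partly pooled over contigs.

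Pine needles are covered by a cuticle, a layer of the polyester cutin and of waxes that limits the loss of water. Very-long-chain fatty acids for the waxes are built by elongation enzymes in the epidermis and are then turned into alkanes, alcohols and esters. In Arabidopsis the CER1 protein is needed for the step that yields alkanes, and lipid-transfer proteins are thought to carry lipids toward the surface. Maritime pine grows from mild Atlantic coasts to dry mountains, and provenances raised together allow inherited differences in expression to be looked for.

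Whole counts recovered from the CPM values totalled between 40019608 and 58835449 per library. The lowest count of any member was 46, for sp_v3.0_unigene48791 in T6 (exact Poisson 95% interval 33.7 to 61.4, for counting error only), and no member had fewer than 162 counts in a Leiria library. The sources used here do not say whether strand entered the counting or where a pair matching more than 1 contig was counted, and similar contigs could share counts. Contig lengths are not in the table, so CPM compares plants within a contig and not the amounts of different transcripts.

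Summed CPM of the members was 7753 and 7106 in the Leiria plants L6 and L7, against 1296 and 1308 in the Tamrabta plants T3 and T6. This was 0.705% and 0.706% of the counts of the Leiria libraries, against 0.131% and 0.144% of those of the Tamrabta libraries. The 5 members of highest mean CPM made up 46.1% and 49.6% of the members' sum in L6 and L7, against 58.6% and 53.1% in T3 and T6. The median member stood at 30.0 and 29.9 CPM in L6 and L7, against 3.23 and 3.57 CPM in T3 and T6. The sums and medians of the plants of a provenance were thus close to each other.

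**Figure D1:**
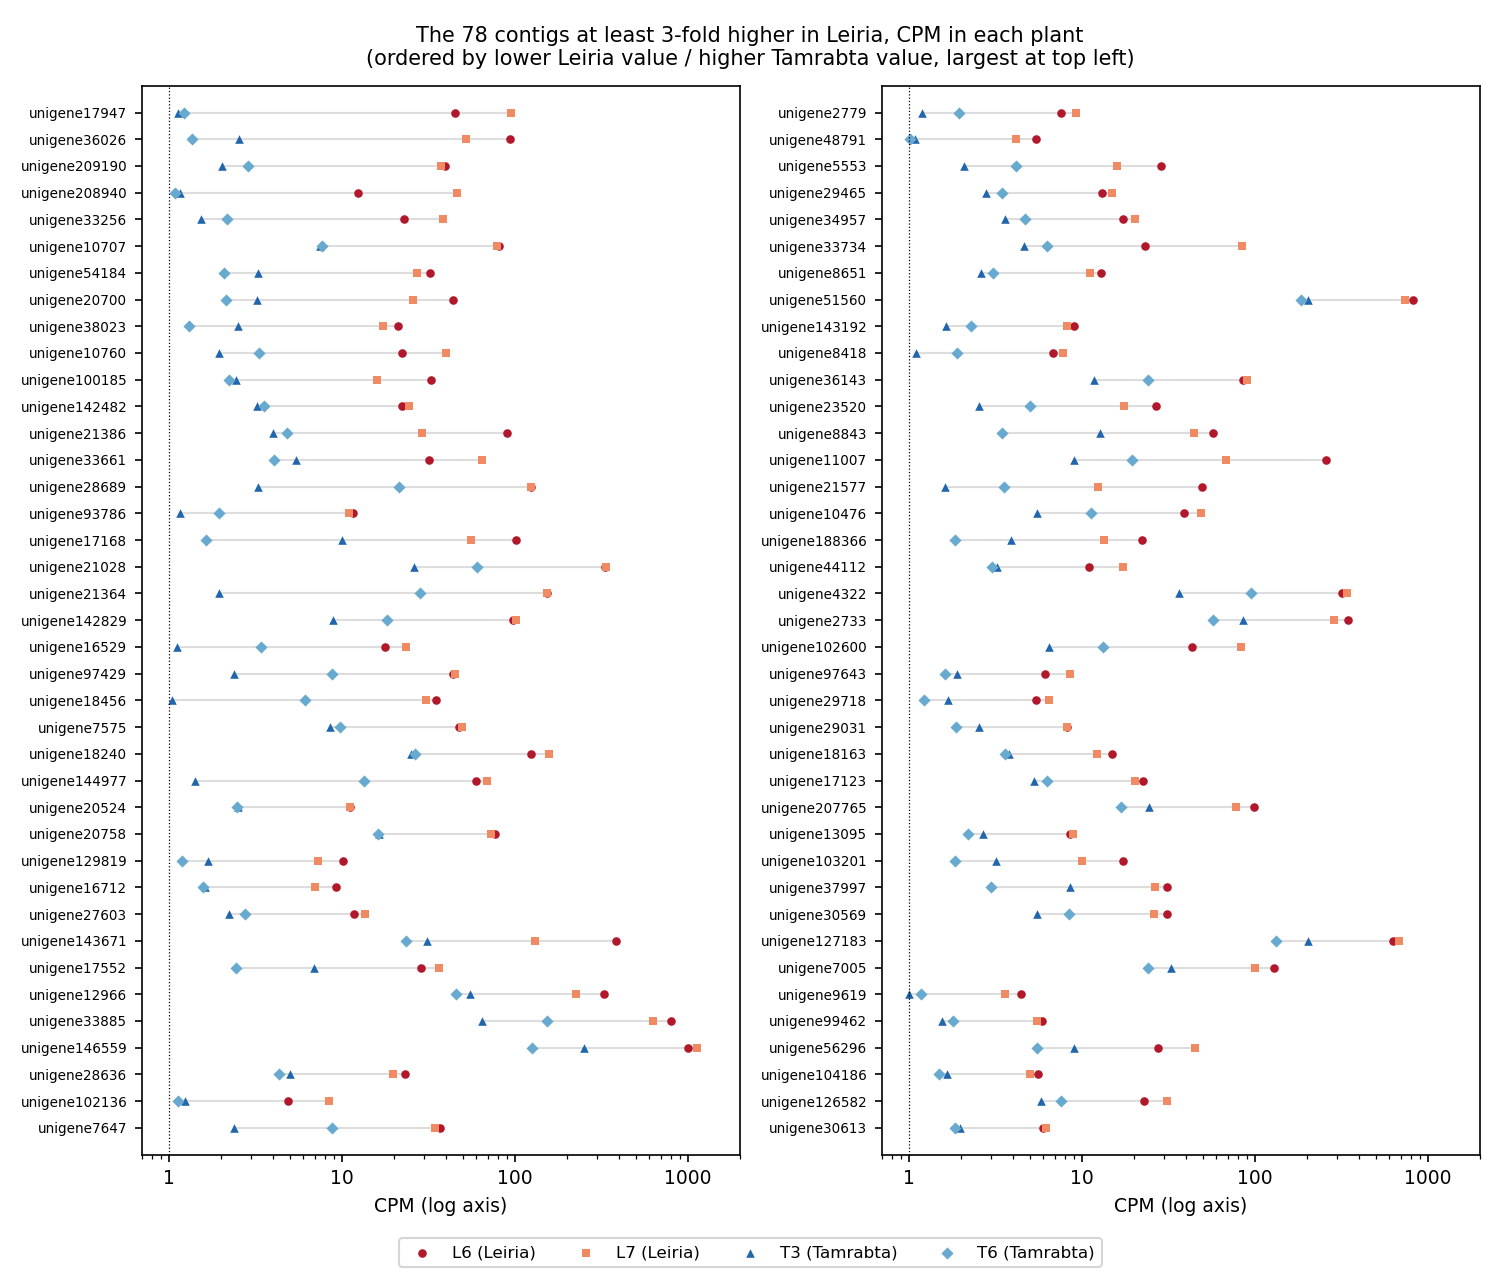
CPM of each of the 78 members in each plant on a log axis, with circles and squares for the Leiria plants L6 and L7 and triangles and diamonds for the Tamrabta plants T3 and T6, ordered by the lower Leiria value over the higher Tamrabta value. The dotted line marks the floor of 1 CPM, and the grey line joins the lowest Tamrabta and the highest Leiria value, so that the gap between the provenances can be set against the gap between plants of 1 provenance.

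The lower Leiria value over the higher Tamrabta value, called the ratio here, was between 3 and 4 for 43 members, between 4 and 5 for 13, between 5 and 10 for 16 and 10 or more for 6. Its median was 3.90. The mean of the Leiria plants over the mean of the Tamrabta plants had a median of 5.55-fold and lay between 3.20-fold and 59.8-fold. On the log2(CPM + 0.5) scale, on which the change of low contigs is understated, the median difference (logFC, Leiria minus Tamrabta) was 2.42 over the members and 0.01 over all 17571 contigs. The mirrored rule, with Tamrabta at least 3 times above Leiria, was met by 47 contigs.

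Members were found at low and at high levels. Their median mean CPM was 17.1, and that of all contigs past the floor was 18.5. A mean under 5 CPM was found for 10 members, a mean of 5 to under 20 CPM for 34, of 20 to under 100 CPM for 25 and of 100 CPM or more for 9. The corresponding shares were 12.8%, 43.6%, 32.1% and 11.5% of the members, against 24.3%, 27.2%, 34.1% and 14.4% of all contigs past the floor. The rule shapes the members' shares in part. It holds the Leiria values at 3 times the floor or more and leaves out the 100 contigs of highest mean, which all contigs past the floor include. None of the 100 contigs left out for their high mean met the rule, the largest ratio among them being 2.60.

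**Figure D2:**
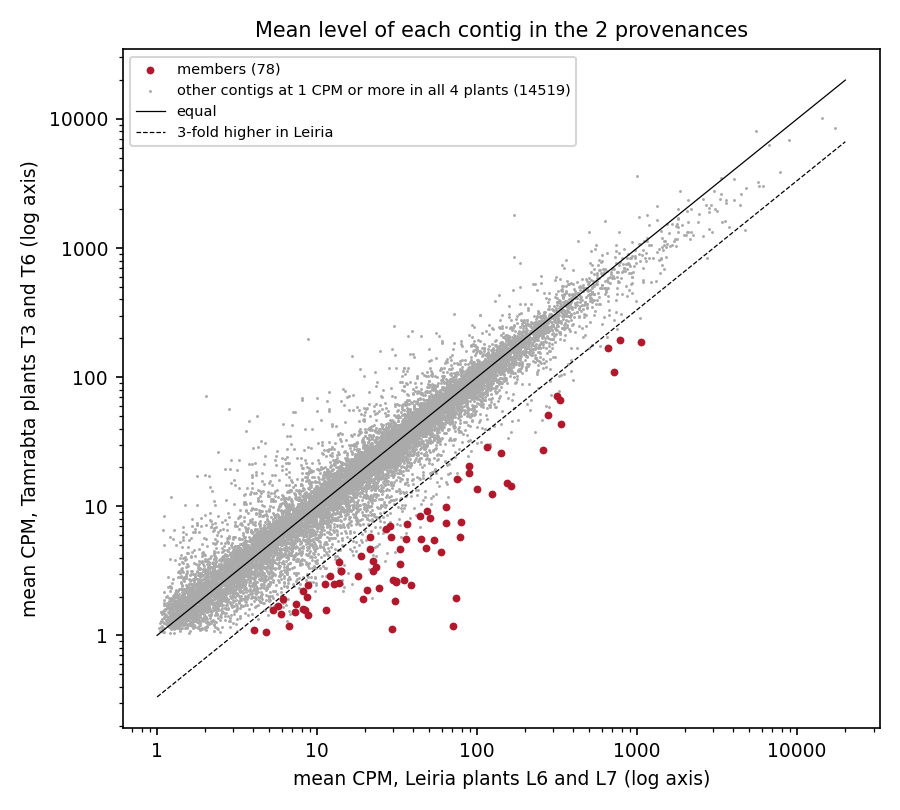
Mean CPM of the Leiria plants on the x axis and mean CPM of the Tamrabta plants on the y axis for the 14597 contigs past the floor, both on log axes, with the members as large points. The solid line marks equal means and the dashed line a mean 3 times higher in Leiria, and the 78 members lie below the dashed line from 4.03 CPM to 1063 CPM in Leiria.

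The floor of 1 CPM in Tamrabta set the members apart from a larger group of contigs that were low in that provenance. Without the floor in Tamrabta, 291 contigs had both Leiria values at 1 CPM or more and 3 times above both Tamrabta values. Of these, 212 were under 1 CPM in at least 1 Tamrabta library, 158 of them in both, 35 in T3 alone and 19 in T6 alone. The other 79 were at 1 CPM or more in both Tamrabta plants, and these are the 78 members and sp_v3.0_unigene16601.

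A description was held for few members. Of the 1791 contigs held from the study's table of array spots, 1036 were also in the RNA-Seq table, and 964 of these passed the floor. Only 9 members were among them, 4 with a description and 5 without, and the other 69 members were not listed. Only part of the study's table was held, so a member not listed here may have a description in the rest of it. The table was sorted by a difference measured on arrays that included the same plants, so a listed contig was not chosen independently of these values. By words in the descriptions, 1 member belonged to the lipid and cuticle class and 1 to transcription and signalling, and 7 were in no class.

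The member described as CER1 (sp_v3.0_unigene209190, matched to AT1G02205.3) is a homolog of the Arabidopsis protein of alkane synthesis introduced above. It had 39.3 and 37.5 CPM in L6 and L7, against 2.04 and 2.87 CPM in T3 and T6. Both Leiria plants were far above both Tamrabta plants. L6 was 1.05-fold above L7, and T6 was 1.41-fold above T3. The means were 38.4 ± 1.31 CPM in Leiria and 2.45 ± 0.585 CPM in Tamrabta (SD, n = 2 each), 15.6-fold apart, with a logFC of 3.73 (standard error 0.21). Only 2 members had a larger ratio than its 13.1.

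Among the described contigs of the lipid and cuticle class, CER1 was the only 1 of 17 to meet the rule. By the edgeR exact test, Leiria was higher in 5 of the 17 and Tamrabta in 2, and limma called CER1 alone. Over all 17571 contigs 616 contigs (3.51%) were called toward Leiria and 437 toward Tamrabta by the exact test. Of the 1036 listed contigs it called 64 toward Leiria and 89 toward Tamrabta. The long-chain acyl-CoA synthetase 4 (sp_v3.0_unigene34128), which activates fatty acids, had 38.5 and 31.9 CPM in the Leiria plants, against 6.84 and 13.5 CPM in T3 and T6. It missed the 3-fold rule through T6. A 3-ketoacyl-CoA synthase, the condensing enzyme of fatty acid elongation (sp_v3.0_unigene8057), had 23.1 and 31.3 CPM in L6 and L7, against 3.43 and 9.56 CPM in T3 and T6.

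A second 3-ketoacyl-CoA synthase (sp_v3.0_unigene10372) had 10.5 and 18.3 CPM in L6 and L7, against 0.614 and 4.62 CPM in T3 and T6, and was thus under the floor in T3. A non-specific lipid-transfer protein (sp_v3.0_unigene18573) had 15.9 and 35.7 CPM in L6 and L7, against 3.11 and 10.0 CPM in T3 and T6. These 4 contigs and CER1 were the 5 of the class that the exact test called toward Leiria, so nothing is read from their separation. Of all 17 contigs of the class, 9 had a logFC above 0. T3 was the lowest plant in each of the 4. In the opposite direction stood another lipid-transfer protein (sp_v3.0_unigene17531), with 0.742 and 0.650 CPM in L6 and L7, against 3.23 and 5.00 CPM in T3 and T6. A contig described as an acyl-CoA dehydrogenase (sp_v3.0_unigene7771, matched to AT3G45300.1) had 36.4 CPM in both Leiria plants, against 78.1 and 68.9 CPM in T3 and T6. Whether it acts on fatty acids is not given.

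**Figure D3:**
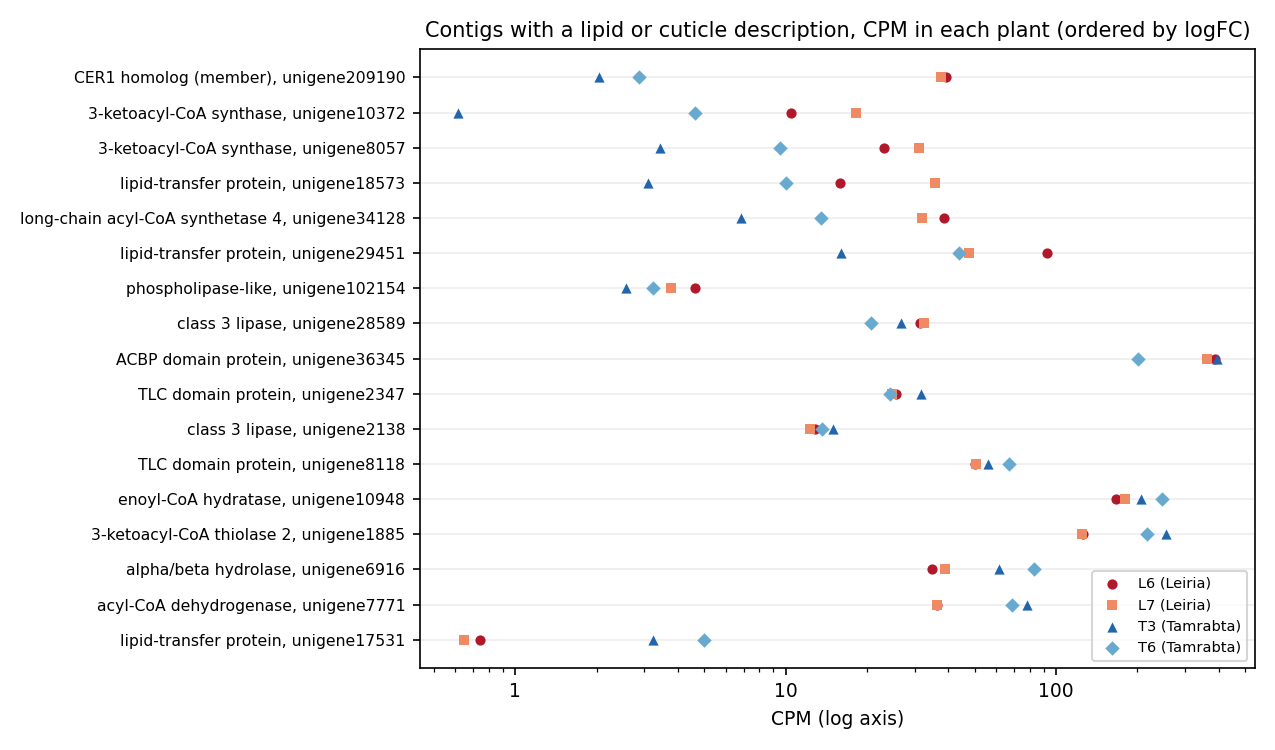
CPM in each plant, on a log axis, of the 17 contigs whose description has a lipid or cuticle word, ordered by logFC (Leiria minus Tamrabta). The CER1 homolog at the top is the member, with 39.3 and 37.5 CPM in the Leiria plants, against 2.04 and 2.87 CPM in the Tamrabta plants.

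The second described member was a cupin domain protein (sp_v3.0_unigene28689, matched to AT5G20630.1), of a fold found in germin-like and seed storage proteins. It had 124 and 123 CPM in L6 and L7, against 3.27 and 21.5 CPM in T3 and T6. The Leiria plants were nearly equal, while T6 was 6.59-fold above T3. The provenance means were 9.96-fold apart, and the logFC of 3.77 had a standard error of 0.87. With 1 library left out in turn, it lay between 2.49, without T3, and 5.04, without T6.

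A member described as an Atrophin-1 multi-domain protein (sp_v3.0_unigene21364), a name taken from an animal protein family of transcriptional co-regulators, had the widest gap between Tamrabta plants of all members. It stood at 154 CPM in both L6 and L7, against 1.94 and 28.3 CPM in T3 and T6, which is a 14.6-fold gap between the Tamrabta plants. Its logFC was 4.20 (standard error 1.21). It was 2.42 without T3 and 5.98 without T6. Another contig with the same description (sp_v3.0_unigene11695) had 197 and 164 CPM in L6 and L7, against 7.73 and 85.4 CPM in T3 and T6, so that it too was lowest in T3, and T6 kept it outside the rule.

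The fourth described member was like a serine/threonine protein kinase (sp_v3.0_unigene28636, matched to AT5G15080.1), an enzyme type that phosphorylates other proteins. It had 23.1 and 19.8 CPM in L6 and L7, against 5.01 and 4.36 CPM in T3 and T6. The plants of each provenance were within 1.25-fold of each other, and the means were 4.58-fold apart, with a logFC of 2.08 (standard error 0.19).

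The 5 listed members without a description were all of low to middle level. The contig sp_v3.0_unigene5553 had 28.7 and 16.0 CPM in L6 and L7, against 2.10 and 4.20 CPM in T3 and T6. For sp_v3.0_unigene34957, matched to AT4G14750.1, there were 17.5 and 20.3 CPM in L6 and L7, against 3.59 and 4.69 CPM in T3 and T6. The values of sp_v3.0_unigene29465 were 13.2 and 15.0 CPM in L6 and L7, against 2.79 and 3.47 CPM in T3 and T6. Of these, sp_v3.0_unigene5553 had the widest gaps between plants of 1 provenance. Leiria values of 11.1 and 17.2 CPM, against Tamrabta values of 3.23 and 3.02 CPM, were measured for sp_v3.0_unigene44112. The last of them, sp_v3.0_unigene18163, had 14.9 and 12.3 CPM in L6 and L7, against 3.82 and 3.60 CPM in T3 and T6.

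The largest ratio, 36.9, was that of sp_v3.0_unigene17947, for which no description was held. It had 45.2 and 95.5 CPM in L6 and L7, against 1.13 and 1.22 CPM in T3 and T6, from 57 and 55 counts in the Tamrabta libraries. The next, sp_v3.0_unigene36026, had 94.4 and 52.3 CPM in L6 and L7, against 2.56 and 1.36 CPM in T3 and T6, a ratio of 20.5. In both members the Tamrabta plants were at 2.56 CPM or less, and the Leiria plants differed from each other by 2.12-fold and 1.80-fold, with L7 higher in sp_v3.0_unigene17947 and L6 higher in sp_v3.0_unigene36026.

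Ratios of 10.6 and 10.5 belonged to sp_v3.0_unigene208940 and sp_v3.0_unigene33256. The contig sp_v3.0_unigene208940 had 12.4 and 46.1 CPM in L6 and L7, against 1.17 and 1.09 CPM in T3 and T6. With 22.9 and 38.3 CPM in L6 and L7, against 1.55 and 2.18 CPM in T3 and T6, sp_v3.0_unigene33256 was also higher in L7 than in L6. The last member with a ratio over 10 was sp_v3.0_unigene10707, at 80.7 and 78.5 CPM in L6 and L7, against 7.47 and 7.74 CPM in T3 and T6. It was at a higher level in Tamrabta than the others of this group, and its plants of each provenance were within 1.04-fold of each other.

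No description was held for the 5 members of highest mean CPM. The highest mean was that of sp_v3.0_unigene146559, with 997 and 1129 CPM in L6 and L7, against 251 and 126 CPM in T3 and T6. The contig sp_v3.0_unigene51560 had 821 and 738 CPM in L6 and L7, against 203 and 186 CPM in T3 and T6. Values of 633 and 685 CPM in L6 and L7, against 204 and 133 CPM in T3 and T6, were found for sp_v3.0_unigene127183. All 3 had Leiria plants within 1.13-fold of each other, and only in sp_v3.0_unigene51560 were the Tamrabta plants that close.

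For sp_v3.0_unigene33885 the values were 804 and 629 CPM in L6 and L7, against 64.6 and 154 CPM in T3 and T6. The fifth contig by mean, sp_v3.0_unigene4322, had 321 and 341 CPM in L6 and L7, against 36.5 and 95.7 CPM in T3 and T6. T3 was thus the lower Tamrabta plant in these 2 contigs and T6 in the other 3. The logFC of the 5 contigs lay between 2.00 and 2.83. The remaining 4 members with a mean over 100 CPM, chosen for mention after their values were seen, were sp_v3.0_unigene21028, sp_v3.0_unigene143671, sp_v3.0_unigene12966 and sp_v3.0_unigene2733, with 132 to 385 CPM in the Leiria plants and 23.4 to 85.8 CPM in the Tamrabta plants.

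Gaps between plants of the same provenance are given as a description with no test, since the rule used the same 4 values. The Leiria plants were over 2-fold apart for 9 members (11.5%), against 4.21% of all contigs past the floor. The Tamrabta plants were over 2-fold apart for 22 members (28.2%), against 8.93% of all contigs past the floor. The median gap was 1.22-fold between the Leiria plants and 1.41-fold between the Tamrabta plants over the members, and 1.15-fold and 1.23-fold over all contigs past the floor.

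L6 was above L7 in 41 of the 78 members (52.6%), against 49.8% of all contigs past the floor, and T6 was above T3 in 41 members, against 47.3%. These shares were close to those of the table. T6 was over 2-fold above T3 in 17 members (21.8%) and T3 over 2-fold above T6 in 5 (6.41%), and for all contigs past the floor these shares were 5.73% and 3.20%. Between the Leiria plants, L6 was over 2-fold above L7 in 5 members and L7 over 2-fold above L6 in 4.

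Besides the cupin and the Atrophin-1 contigs, T6 was over 4-fold above T3 in 2 members. One was sp_v3.0_unigene144977, with 59.7 and 68.7 CPM in L6 and L7, against 1.43 and 13.5 CPM in T3 and T6. Its logFC of 3.64 was 2.21 without T3 and 5.07 without T6. The other, sp_v3.0_unigene18456, singled out after its values were seen, had 34.9 and 30.7 CPM in L6 and L7, against 1.05 and 6.16 CPM in T3 and T6. In all 4 of these members T3 was at 3.27 CPM or less and the Leiria plants were within 1.25-fold of each other. The gap ran the other way in sp_v3.0_unigene17168, also singled out afterwards, with 102 and 55.6 CPM in L6 and L7, against 10.0 and 1.65 CPM in T3 and T6.

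The widest gaps between the Leiria plants were found in sp_v3.0_unigene21577 and sp_v3.0_unigene11007, where L6 was the high plant. The contig sp_v3.0_unigene21577 had 49.6 and 12.4 CPM in L6 and L7, against 1.62 and 3.58 CPM in T3 and T6. Values of 258 and 68.4 CPM in L6 and L7, against 9.07 and 19.7 CPM in T3 and T6, were measured for sp_v3.0_unigene11007. Both contigs had nearly the same proportions among the 4 plants, with L6 4.01-fold and 3.78-fold above L7 and T6 2.20-fold and 2.17-fold above T3. L7 was the high plant in sp_v3.0_unigene208940, by 3.73-fold, and in sp_v3.0_unigene33734, by 3.63-fold, with 23.3 and 84.6 CPM in L6 and L7, against 4.66 and 6.31 CPM in T3 and T6.

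**Figure D4:**
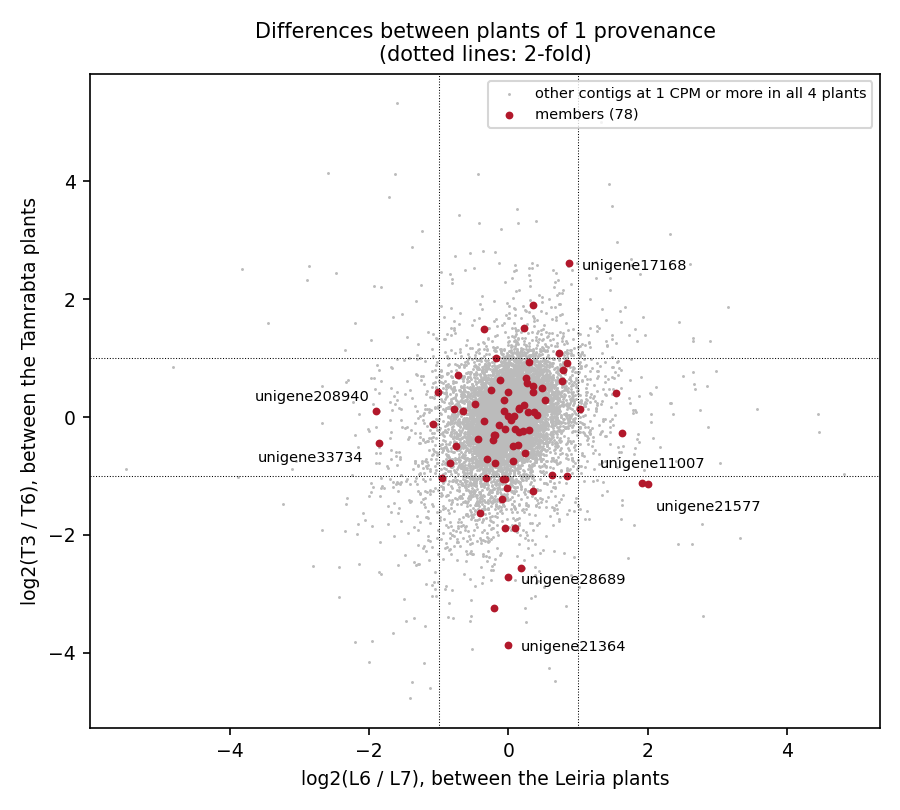
Log2 ratio of L6 over L7 between the Leiria plants on the x axis and of T3 over T6 between the Tamrabta plants on the y axis, for the members (large points) and all other contigs past the floor. Dotted lines mark 2-fold gaps, and 17 members lie below the lower line and 5 above the upper one.

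In 17 members (21.8%), against 40.6% of all contigs past the floor, both pairs of plants were within 1.25-fold. The kinase-like contig, sp_v3.0_unigene10707 and sp_v3.0_unigene51560 were among them. So was sp_v3.0_unigene20524, with 11.1 and 11.2 CPM in L6 and L7, against 2.52 and 2.49 CPM in T3 and T6, singled out after its values were seen. The gap between the provenances was at least 3.20-fold on the means in these contigs. The rule and the limit of 1.25-fold by which they were picked fix this pattern, so nothing is read from it.

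By limma, with an adjusted p under 0.05 over all contigs and a logFC over 1, 5 of the 78 members were called higher in Leiria, beside 0.108% of the 17571 contigs. The edgeR exact test called all 78, beside 3.51%, and DESeq2 called 77, beside 3.6%. The edgeR quasi-likelihood test called 0 members, beside 0.00569%. It had 77 members at an unadjusted p under 0.05, beside 2500 of the 17571 contigs. The rule used this same contrast, so nothing is read from these counts. An exact permutation of 2 plants against 2 cannot give a two-sided p under 0.333 for any single contig.

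In the 5 members called by limma, the plants of a provenance were within 1.41-fold of each other. They were CER1, sp_v3.0_unigene10707 and 3 contigs of middle level. Of these, sp_v3.0_unigene142482 had 22.4 and 24.6 CPM in L6 and L7, against 3.23 and 3.56 CPM in T3 and T6. The values of sp_v3.0_unigene7575 were 47.7 and 49.5 CPM in L6 and L7, against 8.52 and 9.78 CPM in T3 and T6. In sp_v3.0_unigene20758 there were 77.2 and 72.7 CPM in L6 and L7, against 16.5 and 16.3 CPM in T3 and T6. With 1 library left out in turn, none of the 5 was called in every fit. The median logFC of the members was 2.30 without L6, 2.45 without L7, 2.27 without T3 and 2.34 without T6, and the rule fixes its sign. Each such fit leaves 1 plant in a provenance, which is assumed to vary like the others.

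At the threshold of the rule, the last members were sp_v3.0_unigene104186, sp_v3.0_unigene126582 and sp_v3.0_unigene30613, with ratios of 3.03, 3.03 and 3.02. The contig sp_v3.0_unigene30613 had 5.99 and 6.26 CPM in L6 and L7, against 1.98 and 1.85 CPM in T3 and T6. The first contig outside the rule, sp_v3.0_unigene93, had 17.8 and 25.0 CPM in L6 and L7, against 5.92 and 3.11 CPM in T3 and T6. It is described as DEFECTIVE IN MERISTEM SILENCING 3, which in Arabidopsis takes part in RNA-directed DNA methylation. Next outside were sp_v3.0_unigene33786 and sp_v3.0_unigene1094, with ratios of 2.98 and 2.97. The contigs on both sides of the threshold thus had nearly the same ratio, and sp_v3.0_unigene93 was left out at 2.998.

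The identifier of 1 member, sp_v3.0_unigene93786, stood on 2 rows of the table. The row that met the rule had 11.5 and 11.0 CPM in L6 and L7, against 1.17 and 1.96 CPM in T3 and T6. The other had 2.31 and 2.38 CPM in L6 and L7, against 0.297 and 0.289 CPM in T3 and T6, and was under the floor. Both were higher in Leiria, and the table does not say what sets them apart.

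The labelled tissue was checked with 5 described contigs of photosynthesis, among them the light-harvesting protein Lhca4 and a carbonic anhydrase, none of them a member. All 5 were abundant in every library, between 89.0 and 4777 CPM. Their summed level was 11598 and 7383 CPM in L6 and L7, against 6118 and 4025 CPM in T3 and T6. In each of the 5, both Leiria plants were above both Tamrabta plants, with ratios between 1.03, for the carbonic anhydrase, and 1.52. The sum differed within each provenance as well, and in the sum L7 and T3 were closer than the plants of either provenance. The carbonic anhydrase made up a large part of the sum. The most abundant, the carbonic anhydrase, had 4777 and 2283 CPM in L6 and L7, against 2206 and 1022 CPM in T3 and T6. Among 41 contigs with a chloroplast or photosynthesis word, of which 0 were members, 34 had a logFC above 0, with a median of 0.47. Of all 1036 listed contigs, which were not chosen independently of these values, 491 had a logFC above 0, with a median of -0.04. Of the 41, limma called 0, and the exact test called 1 toward Leiria and 1 toward Tamrabta. The part of these differences in the values of the members was not tested. In bulk needles, fewer cells of a type and less RNA per cell cannot be told apart.

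Contigs whose description names pollen, a root or an organism that is not a plant numbered 9, and none was a member. Their summed level was 366 and 407 CPM in L6 and L7, against 278 and 411 CPM in T3 and T6. No such contig was listed at 0. Some of the 9 are also matched to Arabidopsis genes, and the origin of the RNA was not tested. The pollen major allergen homolog (sp_v3.0_unigene34856, also matched to AT5G13870.1) had 48.2 and 70.0 CPM in L6 and L7, against 2.93 and 30.3 CPM in T3 and T6. A contig described as a bacterial methionine gamma-lyase (sp_v3.0_unigene5346) is also matched to AT3G01120.1. It had 50.7 and 40.6 CPM in L6 and L7, against 0.0793 and 15.5 CPM in T3 and T6. T3 was the lowest plant in both, and it was the lowest in 3 of the 9. In the rest of the 9, T3 was not the lowest plant. A contig named for a Plasmodium protein (sp_v3.0_unigene32666) had 7.70 and 21.4 CPM in L6 and L7, against 13.6 and 150 CPM in T3 and T6. Both Tamrabta plants were above both Leiria plants in sp_v3.0_unigene3410, sp_v3.0_unigene96666 and, by little, sp_v3.0_unigene6524, and sp_v3.0_unigene8676 was lowest in T6. The part of these contigs in the values of the members was not tested.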

How the data were processed

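RNA-Seq libraries from needles of 4 plants were analysed. The authors trimmed the paired reads, mapped concordant pairs with Bowtie2 to SustainPine contigs, counted them for each contig and deposited a signal, the CPM given by edgeR after TMM scaling. The sources used here do not give the versions. Each value was a whole multiple of 1 step, and 100% of values came out as whole counts within 0.01 counts.

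Differences were fitted with limma 3.58.1 (R 4.3.3) on log2(CPM + 0.5) values of all 4 libraries, with a trended prior variance and Benjamini-Hochberg adjustment over 17571 contigs. As the deposited signal is not raw, count tests served as alternatives on the recovered counts, namely the exact and quasi-likelihood tests of edgeR 4.0.16 and DESeq2 1.42.0. Other pseudocounts, filters, scalings, a replicate block and each library left out were also tried. The running of the tests was checked on simulated data with 200 changed contigs and the same spread between plants for every contig. The real data differ from these settings, so the check does not measure how often the tests err here.

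Named contigs were the described members, the 5 of largest ratio, the 5 of highest mean, 3 on each side of the threshold, the 3 with the widest gap within each provenance and those called by limma. Descriptions came from the rows held of the study's array table and were put into classes by words in their first 120 characters. The members and the lists were chosen with earlier results of these data known. The plants of each provenance were separate samples, whose counts differed by more than counting error (chi-square over degrees of freedom 85.7 for L6 and L7, 185 for T3 and T6). The array intensities and the authors' own fold changes and p-values were not used.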

Additional observations from a re-analysis of the deposited data

How the results depend on the processing

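The number of contigs that met the rule followed its thresholds. It was 235 at 2 times, 35 at 4 times, 119 with a floor of 0.5 CPM and 49 with a floor of 2 CPM, while sums of 1000000 gave 62 (60 of them members), quantile normalization 68 (65 members) and the excluded contigs left in 79. With 1 library left out, 147 to 307 contigs met it, since fewer values have to. The rule itself fixes a logFC above 0 for the members. For the 26 named contigs, 270 refitted values kept their side of the threshold, 46 came past it and 46 no longer passed. Of the members tested, limma called 2 at a pseudocount of 0.1, 2 at 1, 2 with sums of 1000000, 2 after quantile normalization, 3 with no intensity trend, 1 with a mean of at least 5 CPM (68 members tested) and 0 to 10 with 1 library left out. The exact test called 78, DESeq2 77 and the quasi-likelihood test 0 (77 at an unadjusted p under 0.05). Over all contigs, limma called 19 higher in Leiria and 8 in Tamrabta, 11 and 7 at a pseudocount of 0.1, 10 and 7 at 1, 3 and 2 with a mean of at least 5 CPM, 11 and 8 after quantile normalization and 0 to 24 higher in Leiria with 1 library left out (1311 to 3505 contigs at an unadjusted p under 0.05). The exact test called 616 higher in Leiria and 437 in Tamrabta, DESeq2 632 and 456, and the quasi-likelihood test 1 and 1. Sums of 1000000 gave 15 and 9 and moved the median logFC of all contigs to -0.13. The cause of these changes was not tested. The replicate numbers only name the plants. Fitted as a replicate block, they gave 1 member (sp_v3.0_unigene36026) and 5 contigs in all called higher in Leiria, and none of the 5 members called without the block, CER1 included, was called with it. The same fit had all 78 members at an unadjusted p under 0.05, beside 3314 of the 17571 contigs. The deviations of same-numbered plants had a correlation of 0.20 across contigs over 2 pairs, too few to establish a pairing.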
